A study of Arabidopsis thaliana with 8 samples.

Results

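A group of 74 probe sets showed a clear hypoxia induction in wild type Arabidopsis seedlings and a smaller one in seedlings that overexpress HRA1, and carries no core hypoxia flag in the study's table. For 12 of the 74 the copy of that table used here has no entry, so whether they belong to the core is not known. The probe sets were chosen from the group means of the deposited log2 signals. A member needed a hypoxia-to-air difference of at least 1 log2 unit in Col-0, a difference in OE-HRA1 that was lower by at least 0.8 log2 units, both OE-HRA1 hypoxia arrays below both Col-0 hypoxia arrays, and no core flag in the study's own table of differentially expressed genes. Of 22645 probe sets tested, 450 without a core flag passed the induction threshold, 80 of these also passed the threshold on the difference, and 74 passed the order of the arrays as well, or 16.4% of the 450. Every array entered the rule, so the levels and differences of the members are descriptions. Where limma's calls are counted for them, the counts describe size against the spread between arrays and are no test of the choice.

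The samples were total RNA of whole 7-d-old seedlings on 8 Affymetrix ATH1 arrays, a 3′-biased oligonucleotide array with 1 value per probe set. Col-0 is the wild type. OE-HRA1 seedlings are in the Col-0 background and carry 35S:HRA1:FLAG, in which a strong and broadly active viral promoter drives the tagged trihelix factor HRA1. Each genotype was measured after 2 h of hypoxic stress (2HS), with argon displacing air under dim light, and after 2 h of non-stress treatment (2NS) in chambers open to air, 2 arrays for each combination. Lines #1 and #2, which are independent transformants, gave 1 array each in either OE-HRA1 treatment, and the Col-0 arrays carry only a replicate number, so the spread between arrays may be technical in part and p-values measure only that spread. For both Col-0 2HS arrays the source field gives the air treatment, whereas their other labels give hypoxia, which was followed here.

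Plants that run short of oxygen lose most mitochondrial ATP synthesis and turn to glycolysis and fermentation. Group VII ethylene response factors, which are degraded through the N-end rule pathway while oxygen is present, switch on a small set of genes that respond to hypoxia in nearly every cell type, among them genes for sucrose breakdown and fermentation. Around this core, hypoxia also changes many transcripts for signalling, hormone response, cell wall and lipid metabolism. HRA1 belongs to the trihelix family, plant-specific DNA-binding factors, and the comparison asks how its constant overproduction changes the hypoxic transcriptome.

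HRA1 (AT3G10040) checked the labels. Its log2 signal was 7.20 and 7.00 on the Col-0 2NS arrays and 11.74 and 12.10 on the Col-0 2HS arrays. Both lines stood far above Col-0 in air, at 12.98 and 13.09, and gave 12.19 and 12.02 in 2HS. The arrays of a group correlated at 0.994 to 0.997. Of the seedling markers looked up, the photosynthesis gene RCA (AT2G39730) lay between 14.55 and 14.59 on all arrays, and the log2 of the summed signal of 4 root genes was 14.23 to 14.34 in Col-0 2NS, 13.97 in Col-0 2HS, 13.94 to 14.08 in OE-HRA1 2NS and 13.59 to 13.65 in OE-HRA1 2HS. That sum follows mainly PYK10 (AT3G09260), which read 13.54 to 14.28 across arrays, while the other root genes lay between 5.99 and 10.02. None of these root genes was called between the genotypes in either treatment. The seed genes OLEO1 (AT4G25140) and CRC (AT4G28520) together read 8.42 to 9.12 on the Col-0 arrays and 10.38 to 11.40 on the OE-HRA1 arrays. Limma called 2 of these seed genes higher in OE-HRA1 under hypoxia, with a median difference of 2.41, and 1 in air. Of the 5 photosynthesis genes looked up, only 1, RCA, had a probe set under its name. The part of root and seed transcripts in the members' values was not tested, and in whole seedlings fewer cells of a type and less RNA per cell cannot be told apart.

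In Col-0 the members rose by a median signal log2 ratio (SLR) of 1.75, with a range of 1.01 to 6.14. In OE-HRA1 their median SLR was 0.51, from -0.43 to 3.32. The retained share, the OE-HRA1 SLR as a percentage of the Col-0 SLR, had a median of 28.7% and ran from -37% for the CCCH zinc finger gene AT5G44260 to 78.8% for the DNAJ gene AT3G13310. It was at or below 0 for 7 members, between 0 and 25% for 26, between 25 and 50% for 27 and above 50% for 14. The 376 other non-core probe sets past the induction threshold had a median retained share of 96.1%, and the 46 core probe sets of the table one of 58.4% at a median Col-0 SLR of 3.29. These gaps are partly fixed by the rule, because a member with a small Col-0 SLR must lose a large share of it to reach a difference of 0.8. For the same reason no order between members and core genes can be read from the shares.

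**Figure D1:**
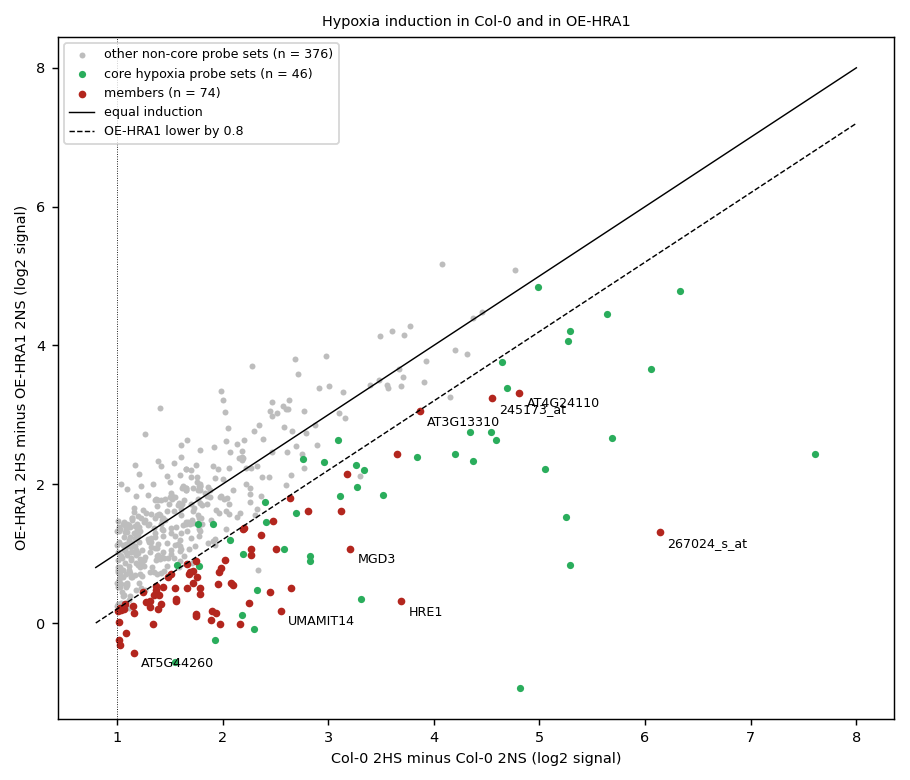
Hypoxia minus air in Col-0 (x axis, log2 signal) against the same difference in OE-HRA1 (y axis), 1 point per probe set. The 74 members (red) lie on or below the dashed line, the 376 other non-core probe sets (grey) around the line of equal induction, and the 46 core probe sets (green) extend to higher Col-0 values.

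Counts of calls describe how the values of members stand against the spread between arrays. A call needed an SLR above 1 in size and an adjusted p under 0.01 in limma's moderated test, with adjustment over all tested probe sets. In Col-0, 70 of 74 members were called higher under hypoxia, where the background over all tested probe sets was 2.02%. The 4 not called were 256159_at, AT5G44260, 3xHMG-box1 and MIOX2, which have SEs of 0.25 to 0.40 log2 units against a median of 0.14 over all members. In OE-HRA1, 15 members were called higher under hypoxia, against a background of 1.96%. Under hypoxia 44 were called lower in OE-HRA1 than in Col-0, against a background of 0.627%. The difference in induction itself was called lower for 14, against a background of 0.163%. Since the rule used all these contrasts, nothing is read from the counts. A block by replicate or line number within each genotype pairs the OE-HRA1 arrays by line. No background is given for that fit, in which the last count was 29. Unblocked, it was 13 without number 2 of Col-0 2HS and 7 without number 1, and 1 to 3 without any 1 of the other 6 arrays. The hypoxia count of 44 was 19 or 20 without line #1 or line #2 of OE-HRA1 2HS.

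No induction threshold was set for OE-HRA1, and some response was left there for most members. Both OE-HRA1 2HS arrays lay above both OE-HRA1 2NS arrays for 57 of 74 members, where 32% of all tested probe sets did. Only 16 members had an OE-HRA1 SLR of at least 1, and 22 stayed under 0.25.

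The most strongly induced member was probe set 267024_s_at, for which the annotation used gives no single gene. Its log2 signal was 5.34 and 5.39 in Col-0 2NS and 11.71 and 11.31 in Col-0 2HS. The OE-HRA1 lines read 5.47 and 5.40 without stress and 6.60 and 6.90 after it. The Col-0 hypoxia arrays thus stood 70.6-fold above air and the OE-HRA1 hypoxia arrays 2.49-fold, with a difference in induction of -4.83 (SE 0.20). The suffix of the name marks probes that match more than 1 transcript, so the signal may come from several genes. It is also among the 12 members that the copy of the table used here does not hold, so no core flag could be read for it. Its Col-0 SLR of 6.14 was the largest of the 12, ahead of AT4G24110 with 4.81 and 245173_at with 4.55. Whether any of these is a core gene is not known.

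**Figure D2:**
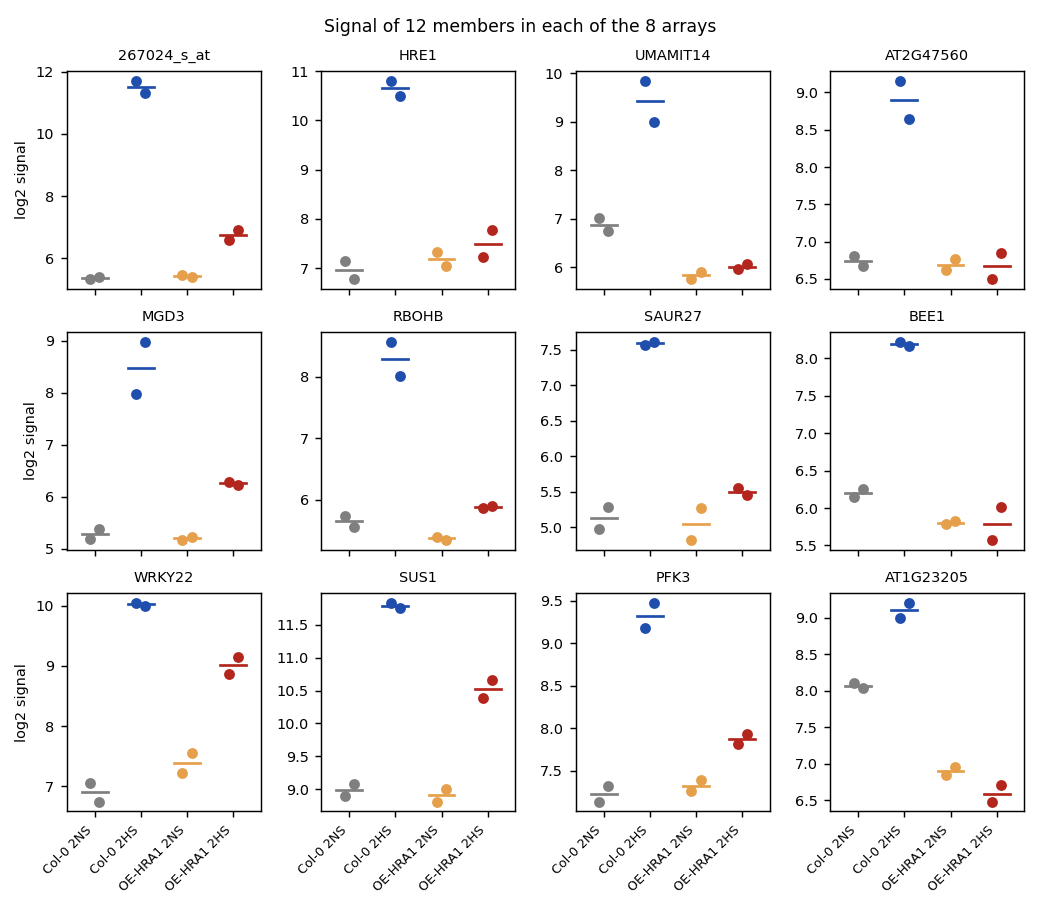
Log2 signal (y axis) of 12 members in the 4 groups (x axis), with 1 point per array and a line at each group mean. The Col-0 hypoxia arrays stand above the other groups in every panel, and in the panel of AT1G23205 the OE-HRA1 arrays lie below Col-0 in air as well.

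Transcription regulators made up 15 of the members. Their median Col-0 SLR was 1.40 and their median OE-HRA1 SLR 0.31. In the table's own annotation, 16 of the 62 members it holds carry a transcription factor family (25.8%), as do 82 of 329 other non-core induced probe sets (24.9%), so the members held about the same share of transcription factors as the remaining induced genes. The families were diverse: AP2/ERF, bHLH, CCCH and C2H2 zinc finger, WRKY, bZIP, MYB, NAC, HMG-box and LOB.

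HRE1 (ERF73, AT1G72360), itself a group VII ethylene response factor whose transcript accumulates under hypoxia, had the largest loss among the named genes. It read 7.15 and 6.78 in Col-0 2NS and 10.81 and 10.50 in Col-0 2HS. The overexpressors read 7.32 and 7.05 in 2NS and 7.22 and 7.77 in 2HS. Line #1 thus changed by -0.11 and line #2 by 0.72, and the OE-HRA1 hypoxia arrays overlapped those in air. The Col-0 SLR of 3.69 met an OE-HRA1 SLR of 0.31, a retained share of 8.30%. HRE1 carries the table's submergence core flag but not its core hypoxia flag, as do the members SUS1, ARL and AT3G03270.

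BEE1 (AT1G18400), a bHLH factor of early brassinosteroid response, rose from 6.15 and 6.26 to 8.22 and 8.16 in Col-0. In OE-HRA1 it stood at 5.78 and 5.83 in air and at 5.57 and 6.01 under hypoxia, with no separation of the treatments. WRKY22 (AT4G01250), a WRKY factor of immune signalling, kept more of its response. It rose from 7.05 and 6.75 to a mean of 10.02 (SD 0.03, n = 2) in Col-0, and from 7.22 and 7.56 to 8.87 and 9.15 in OE-HRA1, a retained share of 52.1%.

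MYB77 (AT3G50060), a MYB factor of auxin response, was lower in OE-HRA1 in both treatments. Col-0 gave 8.13 and 7.82 in 2NS and 9.69 and 9.71 in 2HS, and OE-HRA1 gave 7.01 and 7.14 and then 7.61 and 7.71. Even the hypoxia arrays of OE-HRA1 lay below the air arrays of Col-0. MYBL2 (AT1G71030), a MYB-related repressor of anthocyanin synthesis, had the same layout in air, with 6.12 and 5.95 in Col-0 and 5.50 and 5.33 in OE-HRA1, but reached 6.69 and 6.87 under hypoxia, a retained share of 62.0%.

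The CCCH zinc finger genes AT5G44260 (TZF5) and OZF2 (AT4G29190) went the other way in air. AT5G44260 read 7.15 and 6.75 in Col-0 2NS, 8.52 and 7.70 in Col-0 2HS, 7.44 and 7.75 in OE-HRA1 2NS and 7.10 and 7.24 in OE-HRA1 2HS. It was the member with the lowest OE-HRA1 SLR, -0.43, and its Col-0 hypoxia arrays lay 0.8 log2 units or more apart. OZF2 read 8.80 and 8.93 in Col-0 2NS and 10.11 and 10.24 in Col-0 2HS, against 9.25 and 9.47 in OE-HRA1 2NS and 9.66 and 9.69 in OE-HRA1 2HS.

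3xHMG-box1 (AT4G11080), which encodes a high mobility group protein, had the widest spread of this set. It read 5.32 and 5.57 in Col-0 2NS and 6.35 and 7.22 in Col-0 2HS. In OE-HRA1, line #1 read 5.25 and 5.15 and line #2 read 4.25 and 4.32, so the lines differed from each other in both treatments, and hypoxia minus air was -0.10 and 0.07.

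For the remaining 7 regulators the difference in induction ran from -1.15 to -0.90. TEM1 (AT1G25560), a repressor of flowering, rose from 10.03 and 9.76 to 12.06 and 11.78 in Col-0 and from 10.08 and 10.21 to 11.04 and 11.06 in OE-HRA1. GBF2 (AT4G01120), a bZIP factor that binds G-boxes, had an SLR of 1.42 in Col-0 but of 0.27 in OE-HRA1, and the difference of -1.15 has an SE of 0.12. NAC2 (AT3G15510), bHLH093 (AT5G65640), AT1G77200 of the AP2 family, the zinc finger gene AT5G54630 and LBD4 (AT1G31320) had retained shares of 17.8%, 29.3%, 29.8%, 20.7% and 34.3%.

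A further 9 members were assigned here to protein kinases, other signalling proteins or ubiquitin-related proteins. Their Col-0 SLR ran from 1.16 to 2.65 and their OE-HRA1 SLR from 0.10 to 0.79, so none reached an SLR of 1 in the overexpressors. RBOHB (AT1G09090), a plasma membrane NADPH oxidase that forms superoxide, rose from 5.74 and 5.56 to 8.57 and 8.02 in Col-0. In OE-HRA1 it rose from 5.40 and 5.34 to 5.87 and 5.89, a retained share of 19.2%. Its paralog RBOHD, which the table counts in the core, had SLRs of 3.11 and 1.83.

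CIPK15 (AT5G01810) and CIPK13 (AT2G34180) encode protein kinases that act with calcineurin B-like calcium sensors. In rice, a CIPK15 links oxygen deficiency to sugar signalling. CIPK15 read 9.23 and 8.89 in Col-0 2NS and 10.34 and 10.57 in Col-0 2HS, against 9.01 and 9.11 and then 9.29 and 9.22 in OE-HRA1. CIPK13 read 4.84 and 4.85 in Col-0 2NS, and its Col-0 hypoxia arrays read 7.08 and 6.10, so its difference of -1.65 has an SE of 0.38. The OE-HRA1 arrays of CIPK13 stayed between 4.71 and 5.07.

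The annotated protein kinases AT1G66880 and AT1G07870 had Col-0 SLRs of 1.99 and 1.72 and retained shares of 39.9% and 43.9%. RABA6a (AT1G73640), a Rab GTPase of membrane traffic, read 6.88 and 7.01, then 8.08 and 8.12 in Col-0, and 6.78 and 6.84, then 6.72 and 7.20 in OE-HRA1. The lipid kinase family gene AT1G64460 and the ubiquitin family gene AT1G64470 are numbered next to each other on chromosome 1. Their differences were -0.84 and -0.91. The gene reference used here placed only AT1G64460, so the pair may not be independent. Probe set 258757_at, which the table assigns to a RING finger gene and an upstream open reading frame, had a difference of -1.04.

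For sugar and carbon metabolism, 7 members were found, and all of them had OE-HRA1 hypoxia arrays above the air arrays, as did 32% of all tested probe sets. SUS1 (AT5G20830), a sucrose synthase that cleaves sucrose without use of ATP, rose from 8.89 and 9.07 to 11.83 and 11.75 in Col-0 and from 8.81 and 9.00 to 10.39 and 10.66 in OE-HRA1. Its retained share of 57.8% was the highest of these 7. PFK3 (AT4G26270), a cytosolic phosphofructokinase at the committed step of glycolysis, rose from 7.14 and 7.32 to 9.18 and 9.47 in Col-0, but only from 7.26 and 7.39 to 7.82 and 7.93 in OE-HRA1.

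AT4G17260, the annotated L-lactate dehydrogenase of lactic fermentation, read 9.03 and 9.02 in Col-0 2NS and 10.82 and 10.56 in Col-0 2HS. OE-HRA1 gave 9.11 and 9.21, then 9.58 and 9.74. GBSS1 (AT1G32900), the granule-bound starch synthase that makes amylose, rose by 1.57 in Col-0 and 0.35 in OE-HRA1. TPPA (AT5G51460), a trehalose-6-phosphate phosphatase, and AT2G31390, a pfkB-type carbohydrate kinase, had retained shares of 45.1% and 23.4%.

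MIOX2 (AT2G19800), which oxidises myo-inositol on a route to cell wall sugars, could be placed only loosely. Its Col-0 air arrays read 9.02 and 7.70 and its Col-0 hypoxia arrays 10.07 and 9.98, so the Col-0 SLR of 1.66 has an SE of 0.37. The OE-HRA1 lines gave 8.16 and 8.69 in 2NS and 9.10 and 9.45 in 2HS.

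Cell wall genes, 7 in number, had a median retained share of 12.8% at a median Col-0 SLR of 1.03. The rule lets a member with so small a Col-0 SLR keep only a small share, so this value is partly fixed. OE-HRA1 hypoxia arrays lay above the air arrays for 3 of the 7, a share near the 32% of all tested probe sets. GAE1 (AT4G30440), a UDP-glucuronate 4-epimerase that supplies pectin synthesis, was the most even of them. It read 11.51 and 11.58, then 13.29 and 13.32 in Col-0, and 11.49 and 11.56, then 12.18 and 12.19 in OE-HRA1, with an SE of 0.11 for the difference of -1.10. GAUT15 (AT3G58790), of the galacturonosyltransferase family, read 7.28 and 7.34, then 8.54 and 8.26 in Col-0, and 7.64 and 7.54, then 7.45 and 7.42 in OE-HRA1. In the overexpressors its hypoxia arrays thus lay below those in air.

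AT1G23205, of the invertase and pectin methylesterase inhibitor family, was the member with the lowest air difference, -1.18 (SE 0.11), and the only one called lower in air, against a background of 0.0707%. Limma called none higher in air, against a background of 0.0397%. At an unadjusted p under 0.05 in limma, 12 members were higher in air and 12 lower. The share of all tested probe sets at that level is not given here, so nothing is read from these counts. AT1G23205 read 8.10 and 8.04 in Col-0 2NS and 9.00 and 9.20 in Col-0 2HS, against 6.84 and 6.95 in OE-HRA1 2NS and 6.48 and 6.70 in OE-HRA1 2HS. The call was lost in each fit that left out an air array or an OE-HRA1 hypoxia array. AT4G30380 (EXLB2, expansin-like) rose from 4.45 and 4.95 to 6.95 and 6.96 in Col-0 and from 4.69 and 4.64 to 4.99 and 4.91 in OE-HRA1. CCR2 (AT1G80820), a cinnamoyl-CoA reductase of lignin synthesis, TBL26 (AT4G01080) and the polygalacturonase family gene AT1G48100 had Col-0 SLRs of 1.02, 1.01 and 1.03, at the edge of the rule.

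Among 8 hormone-related members were 3 of the small auxin up RNA (SAUR) family, short transcripts that answer quickly to auxin and promote cell expansion. SAUR27 (AT3G03840) read 4.98 and 5.29 in Col-0 2NS and 7.57 and 7.61 in Col-0 2HS, against 4.82 and 5.28, then 5.55 and 5.45 in OE-HRA1. Its line #1 rose by 0.73 and its line #2 by 0.17. SAUR28 (AT3G03830), the direct neighbour of SAUR27 with no protein-coding gene between them, had SLRs of 1.07 in Col-0 and 0.20 in the overexpressors. Probes for near-identical neighbours of this family can share transcripts, so the pair may not be independent. SAUR78 (AT1G72430) read 11.15 and 10.92, then 12.85 and 12.79 in Col-0, and 11.37 and 11.50, then 11.94 and 11.96 in OE-HRA1.

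ARL (AT2G44080, ARGOS-like), a promoter of cell expansion, read 8.82 and 8.16 in Col-0 2NS, 11.08 and 10.93 in Col-0 2HS, 7.42 and 7.76 in OE-HRA1 2NS and 8.59 and 8.72 in OE-HRA1 2HS. The overexpressors under hypoxia were thus at the level of Col-0 in air. Probe set 262099_s_at, which the table assigns to both YDK1 and GH3.4 of the auxin-conjugating GH3 family, kept 68.3% of its induction, with 1.43 in line #1 and 2.18 in line #2. CKX4 (AT4G29740), a cytokinin oxidase, GID1A (AT3G05120), a gibberellin receptor, and JRG21 (AT3G55970, jasmonate-regulated gene 21) had the differences nearest to the threshold, -0.81, -0.80 and -0.80.

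Lipid, transport and detoxification genes, only 4 in number, had a median retained share of 8.09%. No order of the role groups is read from it. UMAMIT14 (AT2G39510), an amino acid exporter, read 7.01 and 6.74 in Col-0 2NS and 9.85 and 9.00 in Col-0 2HS, and 5.76 and 5.90, then 5.96 and 6.07 in OE-HRA1. Under hypoxia the overexpressors were 10.7-fold lower than Col-0, and they were lower by 1.04 log2 units in air. MGD3 (MGDC, AT2G11810), a galactolipid synthase best known from phosphate starvation, read 5.18 and 5.37, then 7.98 and 8.98 in Col-0, and 5.16 and 5.23, then 6.29 and 6.23 in OE-HRA1.

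CYP96A9 (AT4G39480), a cytochrome P450, rose from 4.70 and 4.99 to 6.75 and 6.72 in Col-0 and stayed between 4.85 and 5.08 in OE-HRA1. GSTU17 (ERD9, AT1G10370), a tau class glutathione transferase, rose from 8.02 and 8.66 to 10.09 and 10.39 in Col-0. The OE-HRA1 arrays of the treatments overlapped, with 8.24 and 8.18 in 2NS and 8.21 and 8.55 in 2HS.

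The stress proteins kept most of their induction. AT3G13310 (DJC66), a DNAJ co-chaperone, rose from 9.20 and 9.21 to 12.93 and 13.22 in Col-0 and from 9.09 and 9.20 to 12.12 and 12.27 in OE-HRA1. AT3G03270, of the universal stress protein family and with a submergence core flag, had a retained share of 53.7%.

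The remaining 22 members were assigned no role here or have no single gene in the annotation, and some may belong with the groups above. Of these 22, 19 had OE-HRA1 hypoxia arrays above the air arrays, against the same 32%. AT4G24110 read 5.57 and 5.42 in Col-0 2NS and 10.33 and 10.27 in Col-0 2HS, against 5.10 and 5.31, then 8.39 and 8.64 in OE-HRA1. Its 28.0-fold rise in Col-0 was still 9.95-fold in the overexpressors. Probe set 245173_at was similar, with 23.5-fold and 9.44-fold. AT1G03610, AT1G10140 and AT5G11090 had Col-0 SLRs of 3.65, 3.18 and 2.48 and retained shares of 66.8%, 67.4% and 59.3%.

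At the other end of this set, AT2G47560 read 6.81 and 6.67, then 9.16 and 8.65 in Col-0, and 6.62 and 6.76, then 6.50 and 6.85 in OE-HRA1. AT1G22030 had an SLR of 1.02 in Col-0 and -0.24 in OE-HRA1. The weakest value was that of 256159_at, at 4.30 and 4.44, then 6.90 and 5.35 in Col-0. Its Col-0 SLR of 1.75 has an SE of 0.40, and the OE-HRA1 arrays lay between 4.40 and 4.71. AT2G37750 had the highest air difference, 0.78, and only a small gap under hypoxia. It read 9.60 and 9.04, then 11.77 and 11.41 in Col-0, and 9.96 and 10.24, then 11.05 and 11.12 in OE-HRA1.

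**Figure D3:**
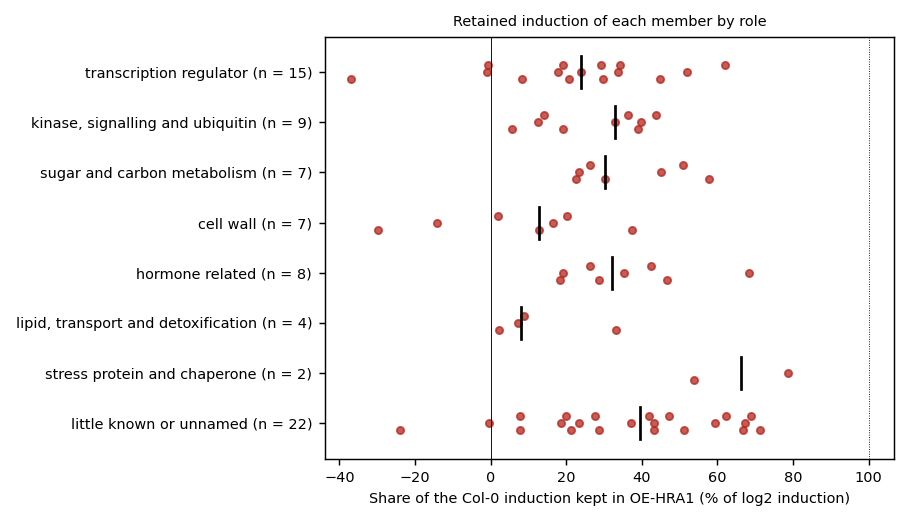
Share of the Col-0 induction kept in OE-HRA1 (x axis, percent of the log2 induction) for each of the 74 members, grouped by role (y axis). A black bar marks each group's median, which runs from 8.09% for lipid, transport and detoxification genes to 66.2% for the 2 stress protein and chaperone genes. The rule limits the share that a member with a small Col-0 SLR can keep, so no order of the groups is read from these medians.

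A smaller induction can come from a lower hypoxia level, a higher air level or both. The rule puts both OE-HRA1 hypoxia arrays below both Col-0 hypoxia arrays, so cases with a higher air level alone are left out. The hypoxia difference of every member is thus below 0 by the rule, and its gap to the air difference is partly fixed. The median air difference of the members was -0.03, with 40 of 74 below 0, and 53 lay within 0.3 log2 units of 0. The median hypoxia difference was -1.17. Both OE-HRA1 air arrays lay above both Col-0 air arrays for 18 members and below them for 24, where the background was 25.4% and 22.9% of all tested probe sets. The air arrays enter the rule through both inductions, which favours members that are higher in OE-HRA1 air.

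A higher air level made up more of the difference in induction than the lower hypoxia level for AT2G37750, with 60.8%. The next shares were those of OZF2 with 49.7%, MEE14 with 45.9%, GID1A with 41.6%, AT5G44260 with 40.7%, LBD4 with 38.5% and WRKY22 with 32.7%. For the first 6, the hypoxia levels of the genotypes differed by 0.94 log2 units at most. In contrast, UMAMIT14, AT1G23205, ARL, MYB77, 3xHMG-box1 and MYBL2 were lower in OE-HRA1 air by 0.62 to 1.18, and their hypoxia gap of 1.46 to 3.41 exceeded the difference in induction. The OE-HRA1 hypoxia mean lay furthest below the Col-0 air mean for AT1G23205, by 1.48, and for UMAMIT14, by 0.86.

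**Figure D4:**
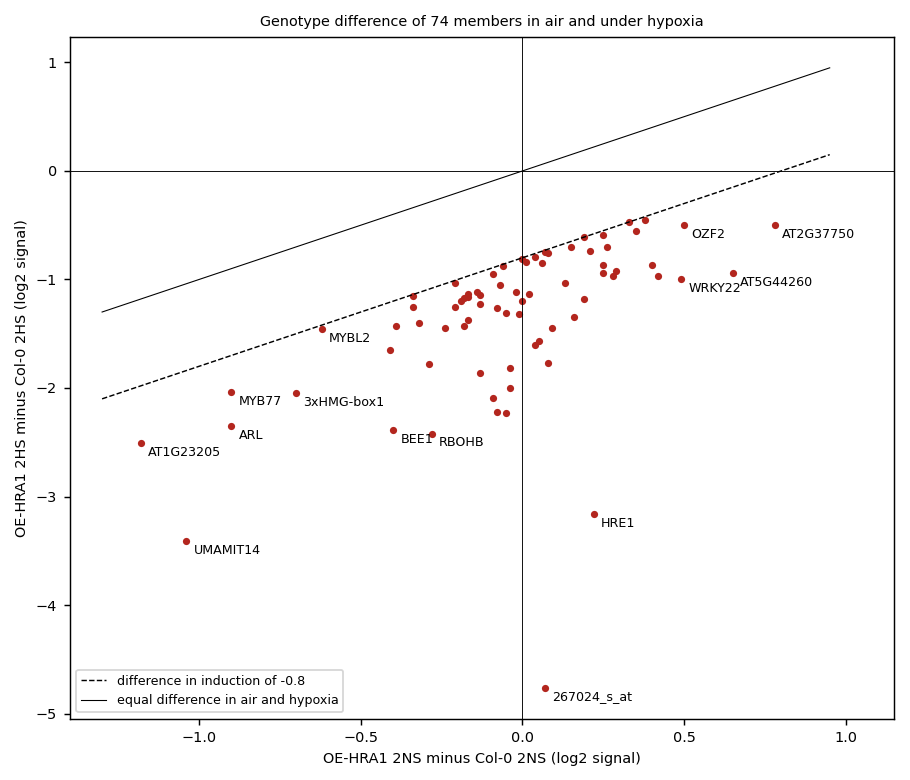
OE-HRA1 minus Col-0 in air (x axis, log2 signal) against the same difference under hypoxia (y axis) for the 74 members. All points lie below 0 on the y axis and on or below the dashed line of the rule, while the air differences spread from -1.18 for AT1G23205 to 0.78 for AT2G37750.

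The overexpressor lines gave similar values. Median SLR was 0.51 in line #1 and 0.46 in line #2, and the median retained share 31.6% and 29.8%, each against the Col-0 mean. Line #2 had the higher induction for 32 of 74 members. Inductions lay over 0.5 log2 units apart for 6 members, namely HRE1, SAUR27, 245173_at, AT1G72540, 262099_s_at and GID1A. The absolute gap between the Col-0 hypoxia arrays had a median of 0.23 over the members and 0.12 over all tested probe sets. Between the OE-HRA1 hypoxia arrays these medians were 0.10 and 0.10. The rule asks for a high Col-0 hypoxia mean, which can favour members with 1 high Col-0 hypoxia array. The wider Col-0 gap of the members is thus partly fixed. Over 0.8 log2 units separated the Col-0 hypoxia arrays for 8 members, among them UMAMIT14, MGD3, CIPK13 and 256159_at.

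**Figure D5:**
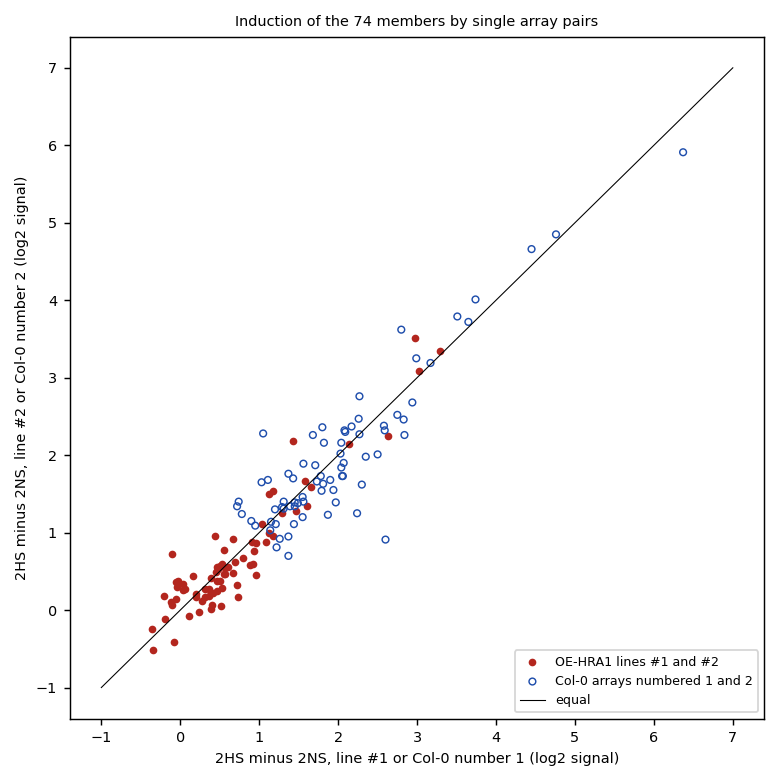
Hypoxia minus air (log2 signal) of each member from single arrays, with OE-HRA1 line #1 (x axis) against line #2 (y axis) as filled points and the Col-0 arrays numbered 1 and 2 as open circles. The OE-HRA1 points lie close to the line of equality, between -0.51 and 3.51, and the Col-0 circles scatter more widely around it. The rule can favour members with 1 high Col-0 hypoxia array, so the Col-0 scatter is partly fixed.

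Values near each threshold were as follows for members and for probe sets left out. Inside the threshold of -0.8 on the difference lay CKX4, GID1A and JRG21, with -0.807, -0.803 and, to 2 decimals, -0.80. Outside it lay AT3G22550, AT5G13880 and bZIP58 (AT1G13600), with -0.790, -0.781 and -0.773. For the Col-0 SLR, TBL26, CCR2 and AT1G22030 with 1.014, 1.016 and 1.018 stood against SAUR68, AT4G31760 and AT4G14980 with 0.976, 0.991 and 0.959. The order of the hypoxia arrays kept 6 probe sets out, among them LBD40 (AT1G67100), GPT2 (AT1G61800), BCB (AT5G20230) and HCHIB (AT3G12500), whose air differences were 0.82, 0.93, 1.69 and 2.32 and whose hypoxia differences were 0.00, 0.04, 0.51 and 0.74. AT2G37750, 262099_s_at and TBL26 passed that order with gaps of 0.29, 0.30 and 0.31.

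In Col-0 air, 24 members lay under 6.41, the 40th percentile of mean level over all tested probe sets, and 10 of the 12 members without a table entry were among these. The 62 members held by the table had a median retained share of 29.6%, and the other 12 one of 18.9%.

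Relatives of the members were looked up by gene name. Most of them were named only through the study's list of differentially expressed genes, so the lists are incomplete and their counts are not those of whole families. Most of the 12 other tau class glutathione transferases were named by the platform. For hypoxia in Col-0 limma called none of them, with 2 at an unadjusted p under 0.05, and their median Col-0 SLR was 0.04, against -0.01 over all tested probe sets. GSTU9 was called in OE-HRA1, with an SLR of 1.32 (limma, adjusted p = 0.00125). Of 10 other SAUR probe sets, SAUR72 was called higher in Col-0, with 1.03 (limma, adjusted p = 0.00194), and SAUR57 lower, with -2.85 (limma, adjusted p = 0.00013). SAUR68 had a Col-0 SLR of 0.98 and an OE-HRA1 SLR of -0.23, and SAUR66 was called for OE-HRA1 against Col-0 in 2HS, with -1.20 (limma, adjusted p = 0.00841).

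MGD2, the closest relative of MGD3, was induced in both genotypes, with SLRs of 1.47 and 1.62 (limma, adjusted p = 0.00561 and 0.00316). The phosphate starvation markers SPX1, SPX2 and SPX3 were likewise called in both genotypes, with Col-0 SLRs of 4.08, 1.36 and 2.14 and OE-HRA1 SLRs of 5.18, 1.51 and 1.53. UMAMIT12 and UMAMIT18 were called lower in Col-0, with SLRs of -1.05 and -1.48 (limma, adjusted p = 0.00191 and 0.00036). In OE-HRA1 their SLRs were -0.99, not called, and -1.12, called (limma, adjusted p = 0.00242 and 0.00138). BEE3 fell by 1.88 (Col-0) and by 2.34 (OE-HRA1), opposite to BEE1. CIPK14 (AT5G01820) was the only other CIPK gene named, and under hypoxia it was called higher in OE-HRA1, with 1.07 (limma, adjusted p = 0.00356). Of the 32 listed probe sets outside members and core, limma called no interaction, with 10 at an unadjusted p under 0.05. The 32 include the SPX and WOX families, which hold no member. The share of all tested probe sets at that level is not given here. Nothing is therefore read from this count or from that of the glutathione transferases.

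Core relatives are set beside the members as values. SUS4 had SLRs of 5.29 in Col-0 and 0.83 in OE-HRA1, against 2.81 and 1.62 for SUS1. PFK6 had 2.30 and -0.09, against 2.10 and 0.55 for PFK3.

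Of the members, 67 could be placed on the chromosomes through RefSeq. Chromosomes 1 to 5 held 23, 10, 11, 16 and 7 of them, or 34.3%, 14.9%, 16.4%, 23.9% and 10.4%, where 26.3%, 15.3%, 20.4%, 14.6% and 23.4% of the placed tested probe sets lie. SAUR27 and SAUR28 were the only direct neighbours among these. HRE1 and SAUR78 had 5 protein-coding genes between them, TBL26 and GBF2 had 3, and AT4G30380 and GAE1 had 5.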

How the data were processed

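Total RNA of 4 groups of 2 arrays was measured. The deposited values are log2 signals per probe set, which the authors summarised with RMA; MAS5 present calls were made by the authors and their filter was not repeated. Versions of both are not given in the sources used here. Of 22810 probe sets, 64 controls and 101 organelle probe sets known from the annotation were dropped. Single genes came from the platform annotation for 36 members and from the study's supplementary table for 32; 6 had none. RefSeq (TAIR10.1) gave names and gene order. That table (1249 probe sets in the copy used, 46 core) also gave core flags and annotation, but its fold changes and p-values were not used. Members and lists were chosen with earlier results of these data known. Named genes were HRA1, the 10 largest differences and inductions, members with no OE-HRA1 rise and those at each threshold. Also named were the air extremes and up to 4 relatives per family. All members assigned here as transcription factors, kinases or enzymes of carbon and amino acid metabolism were named too. Other members were added after their values were seen.

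In R 4.3.3, limma 3.58.1 fitted 1 mean per group, adjusted p-values by Benjamini-Hochberg over 22645 probe sets, and had 4 residual and 4.14 prior degrees of freedom. The fit was tested on simulated data with independent noise and no pairing of arrays, so that test does not cover paired arrays. Same-numbered deviations correlated at 0.37 in Col-0, 0.15 in OE-HRA1 (same line), -0.09 between genotypes in air and -0.08 under hypoxia. Alternatives were a signal filter, 2 scalings, trend and robust priors, blocks, other thresholds, the compared groups only, and each array left out. Arrays have no read depth, and 2 per group limit the precision. Promoter motifs were not searched.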

Additional observations from a re-analysis of the deposited data

Results flagged for a closer look

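A difference in induction between the genotypes was called for 14 of 74 members by limma's interaction test, all with the smaller induction in OE-HRA1, against a background of 0.163% over all tested probe sets. The count was 13 without number 2 of Col-0 2HS, 7 without number 1 of Col-0 2HS, and 1 to 3 without any 1 of the other 6 arrays. The members had been chosen for this difference, so the count is no independent test of it. The 14 were 267024_s_at, HRE1, RBOHB, SAUR27, BEE1, AT4G30380, CYP96A9, PFK3, AT4G24110, SAUR78, AT1G04770, AT3G02555, GBF2 and GAE1. UMAMIT14, AT2G47560 and MGD3 had larger differences than most of these (-2.37, -2.18 and -2.14) but were not called, with SEs of 0.33, 0.25 and 0.37. Groups of 2 arrays were too small to look for single outlying arrays.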

How the results depend on the processing

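The number of members was 74 under the rule, 71 to 104 with an array left out and 48 with a difference of at most -1.0. With both scalings, 66 of 68 (median centring) and 70 of 73 (quantile normalization again) probe sets were shared with the 74. The added limit to probe sets in the table, chosen after seeing the data, left 62. Calls for hypoxia in Col-0 ranged from 62 to 68 with an array left out. Calls for hypoxia in OE-HRA1 ranged from 13 to 16, and were 25 with no minimum log2 ratio. Calls for OE-HRA1 against Col-0 under hypoxia ranged from 19 to 45, with 19 and 20 without line #1 or line #2 of OE-HRA1 2HS. The single air call became 0 to 2 with an array left out, and 0 in the fit of only the compared groups. Interaction calls ranged from 1 to 13 with an array left out, and were 9 with median centring, 9 with quantile normalization again, 7 with the replicate block over all 4 groups, 29 with the block within each genotype and 28 at an adjusted p under 0.05. The median retained share of 28.7% ranged from 27.2% to 32.5% with an array left out, and was 31.5% with median centring and 33.4% over members at or above the 40th percentile of level in Col-0 air, an added alternative. The causes were not tested, and no background over all tested probe sets is given for the calls of these refits. Across 1094 refits of single differences, none changed sign, and with an array left out they lay between -5.03 and -0.16. The members were chosen for this difference on the same arrays, so a change of sign was unlikely from the start. The block changed no other count by over 1.5 times. Limits are 2 arrays per group, whole seedlings, 12 members without a flag to read, and incomplete gene names.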
